A study of Mus musculus with 9 samples.

Results

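The Slc25 genes encode the mitochondrial carriers, and 43 of them were measured in whole testis of mice aged 8, 16 and 24 days. Members were the genes whose array row carried exactly 1 gene symbol, beginning with Slc25a, in a table of 19935 genes. The adenine nucleotide translocases Slc25a4, Slc25a5 and Slc25a31 were left out of the set of 46 Slc25a genes. The members filled 45 of 28815 rows, because Slc25a36 and Slc25a40 had 2 rows each, which were averaged.

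Per the labels, the testes came from untreated male Swiss albino mice of an inbred colony, sampled during the first wave of spermatogenesis. The design text gives 3 biological replicates per age, 9 arrays in all, and names the comparisons of 16 with 8, 24 with 16 and 24 with 8 days. Neither a genotype nor a pooling of animals is given. In what follows the arrays are listed as replicates 1, 2 and 3, where replicate 3 is the array whose title carries no number.

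Mitochondrial carriers are small proteins of the inner mitochondrial membrane, with a few in the outer membrane or in peroxisomes. Each passes a narrow set of metabolites, such as amino acids, dicarboxylates, phosphate, nucleotides, coenzymes or iron, between the cytosol and the matrix. In the testis, developing germ cells draw much of their energy from lactate supplied by Sertoli cells, and the mitochondria of spermatocytes and spermatids change shape and are later packed around the sperm tail.

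Values were on a logarithmic scale, taken as log2, relative to the median of each row over the 9 arrays, so 0 is the level of the median array and not an absence of signal. The log base is not stated in the labels or the file, so each fold holds only on the log2 reading. No expression level, and no order of level between genes, can be read from such values. A gene was called when limma's p, adjusted by Benjamini-Hochberg over all 19935 genes, was under 0.05, and "rose" and "fell" are used only of called genes. Error after a change is limma's standard error (SE), and error after a mean is the SD over 3 arrays.

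The carriers did not move as a block: over the whole span from 8 to 24 days 11 rose and 18 fell. These shares of 25.6% and 41.9% lay near the 19.2% and 35.2% of all genes tested. The largest rises were those of Slc25a2, an ornithine carrier, and Slc25a54, an ATP-Mg carrier relative, with larger changes from 16 to 24 days than from 8 to 16 days. Slc25a21, the oxodicarboxylate carrier, rose between 8 and 16 days, and its change after that was 0.03. The largest falls were those of the aspartate-glutamate carriers Slc25a12 and Slc25a13 and of the NAD carrier Slc25a51, which fell in both intervals. In whole tissue, fewer cells of a type and less RNA per cell cannot be told apart, and this holds for every change below.

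**Figure D1:**
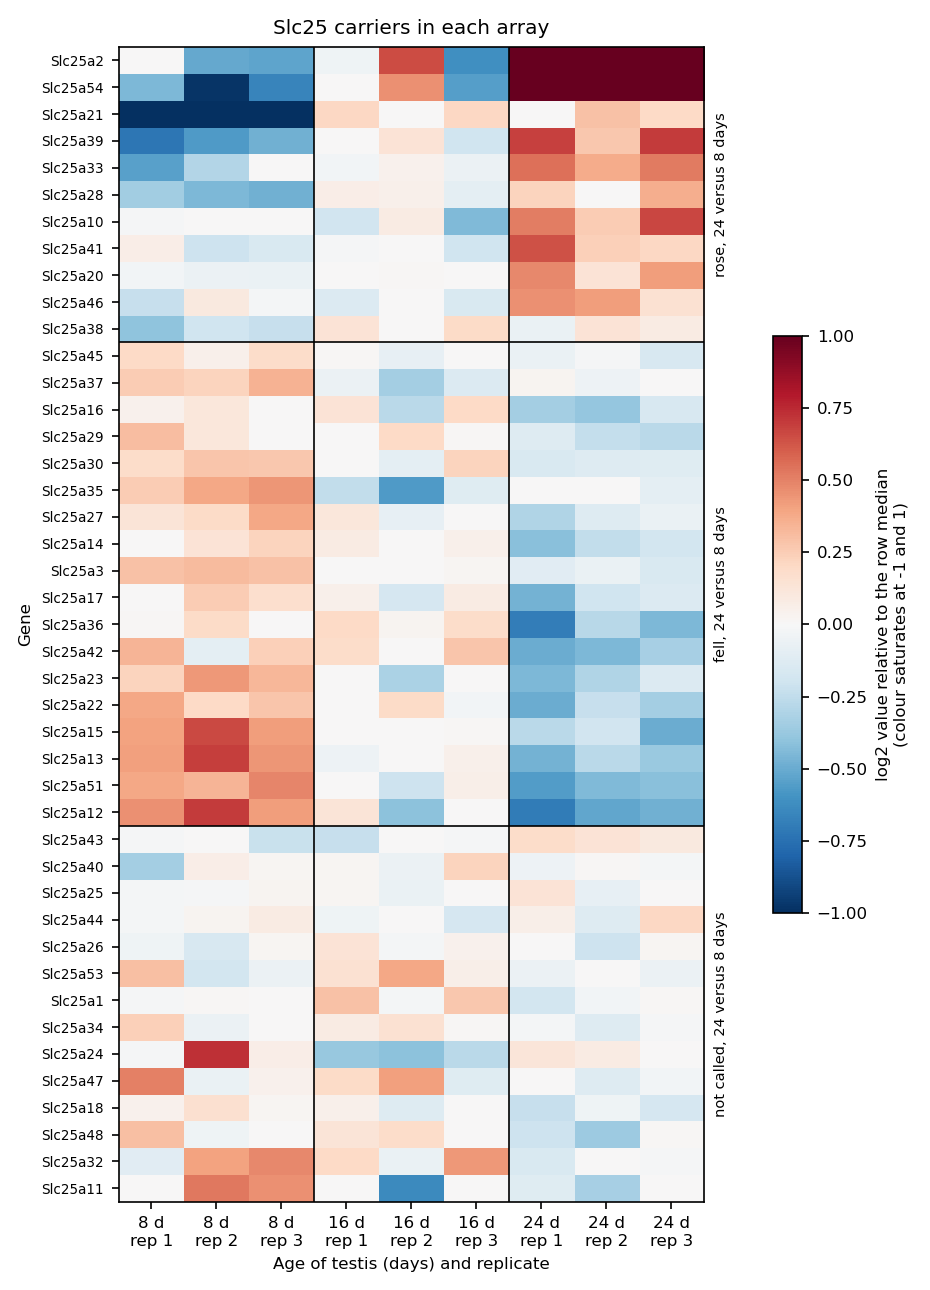
Each row is a carrier and each column an array, with the age in days and the replicate below it; colour is the log2 value relative to the row median and saturates at -1 and 1. Rows are grouped by the call at 24 versus 8 days, with 11 members that rose, 18 that fell and 14 not called; Slc25a2 and Slc25a54 are saturated in all 3 arrays of 24 days, and Slc25a21 in all 3 of 8 days.

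From 8 to 16 days 4 members rose (9.3% of 43) and 9 fell (20.9%), against 10.4% and 14.3% of all genes tested. From 16 to 24 days 8 rose and 8 fell (18.6% each), against 13.2% and 20.1% of all genes. Over 24 versus 8 days the shares were 25.6% risen and 41.9% fallen, against 19.2% and 35.2%. In all, 30.2%, 37.2% and 67.4% of the members were called in the 3 comparisons, beside a background of 24.7%, 33.3% and 54.4%, so that the family's shares lay near those of the array as a whole. The median change of a member was -0.05, -0.12 and -0.22, against -0.02, -0.16 and -0.18 over all genes. Centring each array on its own median moved the split to 9 risen and 4 fallen for 24 versus 16 days, and to 12 risen and 10 fallen for 24 versus 8 days. All genes moved the same way with it, from 2641 risen and 4004 fallen to 2861 and 1927 for 24 versus 16 days, and from 3825 and 7015 to 4389 and 5236 for 24 versus 8 days.

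The arrays of the ages compared did not overlap for 17, 25 and 31 members, which is 39.5%, 58.1% and 72.1%, beside 36.2%, 55.6% and 65.5% of all genes. Each called member was among them. The moderated F over the 3 ages called 28 of the 43 members, beside 10104 of 19935 genes (50.7%). Changes both called and at least 2-fold numbered 1, 2 and 5 of the 43, beside 4.79%, 5.52% and 16.9% of all genes. In no comparison were 13 of the 43 members called, beside 8603 of 19935 genes (43.2%).

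Of the calls of the first interval, 8 were kept whichever array was left out. Over these runs 18.8% to 25.5% of all genes were called, beside 24.7% with every array. Slc25a23 was lost without replicate 2 of 8 days, replicate 3 of 8 days or replicate 2 of 16 days, at an adjusted p of up to 0.0886. Slc25a24 was lost without replicate 1 or 2 of 16 days (up to 0.0677), Slc25a28 without replicate 3 of 8 days or replicate 1 of 16 days (up to 0.0548), Slc25a38 without replicate 1 or 3 of 16 days (up to 0.0594), and Slc25a3 without replicate 1 of 16 days (0.0579). With centred arrays the calls of Slc25a23 and Slc25a24 were lost as well (adjusted p = 0.0549 and 0.0512). With blanks left missing Slc25a3 was not called, at a change of -0.28 that rested on replicate 3 alone at 16 days.

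Of the 16 calls of the second interval, 7 were kept whichever array was left out, namely those of Slc25a2, Slc25a10, Slc25a36, Slc25a39, Slc25a42, Slc25a51 and Slc25a54. The other 9 were those of Slc25a12, Slc25a13, Slc25a14, Slc25a15, Slc25a20, Slc25a22, Slc25a33, Slc25a41 and Slc25a46. Without replicate 1 of 24 days all 9 were lost, at adjusted p from 0.0599 to 0.111, which left 4 members risen and 3 fallen, and over all genes the share called dropped from 33.3% to 19.1%. Without replicate 1 of 16 days all but Slc25a22 were lost (0.0506 to 0.122), which left 4 and 4, beside 18.4% of all genes called. Without replicate 3 of 16 days all but Slc25a22 and Slc25a33 were lost (0.0558 to 0.0911), which left 5 and 4, beside 24.1% of all genes. Slc25a12, Slc25a13, Slc25a15 and Slc25a20 were lost without replicate 3 of 24 days (0.0506 to 0.144), which left 7 and 5, beside 25.7% of all genes. Slc25a12 and Slc25a46 were lost without replicate 2 of 24 days (0.0573 and 0.06), and Slc25a15 without replicate 3 of 8 days (0.0568) or replicate 2 of 16 days (0.0693). With blanks left missing the calls of Slc25a12, Slc25a13, Slc25a14, Slc25a15, Slc25a20 and Slc25a41 were lost (0.056 to 0.0974).

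Over the whole span 20 of 29 calls were kept whichever array was left out. In these runs 46.9% to 56.4% of all genes were called, beside 54.4% with every array. The other 9 were those of Slc25a10, Slc25a16, Slc25a17, Slc25a29, Slc25a35, Slc25a37, Slc25a38, Slc25a45 and Slc25a46. Slc25a10, Slc25a16, Slc25a17, Slc25a37, Slc25a45 and Slc25a46 were lost without replicate 1 of 24 days (adjusted p from 0.0502 to 0.112), and Slc25a10, Slc25a29, Slc25a35, Slc25a37, Slc25a38 and Slc25a45 without replicate 3 of 24 days (0.0522 to 0.149). Slc25a16, Slc25a37, Slc25a38 and Slc25a46 were lost without replicate 2 of 24 days (0.0579 to 0.13), and Slc25a16, Slc25a35, Slc25a37 and Slc25a45 without replicate 3 of 8 days (0.056 to 0.113). Slc25a16, Slc25a45 and Slc25a46 were lost without replicate 1 of 8 days (0.0524 to 0.0928). Slc25a16 was also lost without replicate 2 of 8 days (0.106), Slc25a45 without replicate 3 of 16 days (0.0631), and both without replicate 1 of 16 days (0.0542 and 0.0727). No called change turned its sign in any of these runs.

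Read over both intervals, 4 members fell in each, 9.3% beside 8.42% of all genes, namely Slc25a12, Slc25a13, Slc25a15 and Slc25a51. Slc25a39 was the member that rose in each, 2.33% beside 6.01%. With a call in the first interval and none in the second, Slc25a21, Slc25a28 and Slc25a38 rose and Slc25a3, Slc25a23, Slc25a24, Slc25a35 and Slc25a37 fell. With a call in the second and none in the first, Slc25a2, Slc25a10, Slc25a20, Slc25a33, Slc25a41, Slc25a46 and Slc25a54 rose and Slc25a14, Slc25a22, Slc25a36 and Slc25a42 fell. Another 6 fell over the whole span without a call in either interval. A call in an interval and none in the other does not show that the intervals differed.

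**Figure D2:**
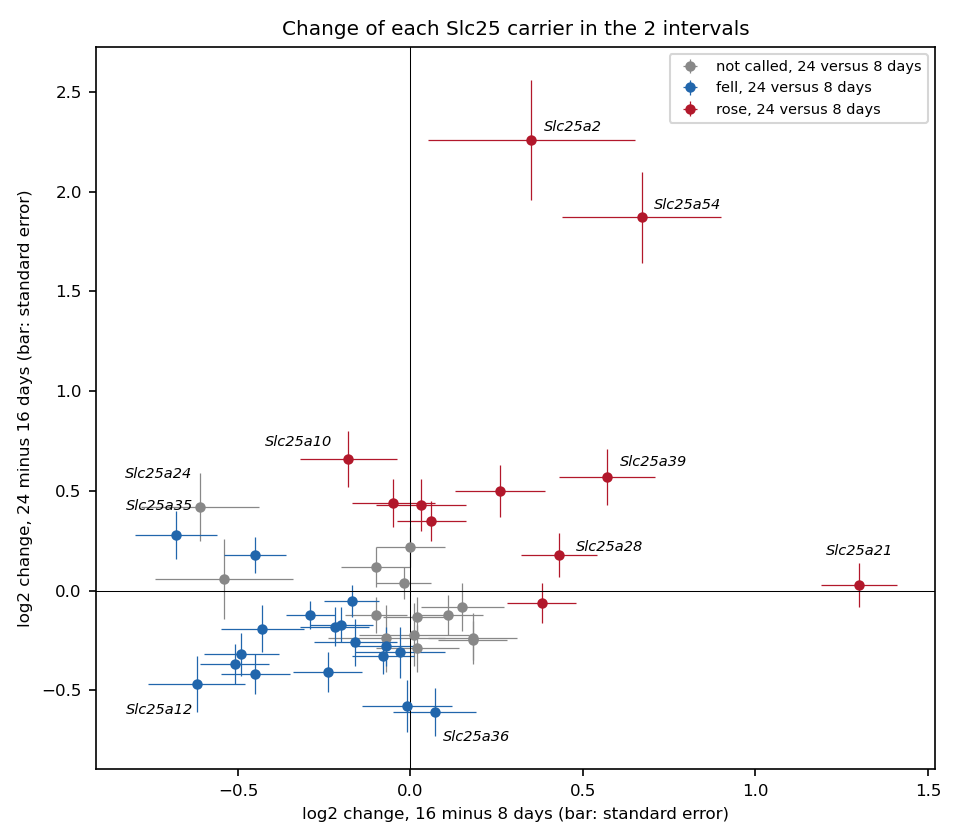
Each point is a carrier, with the log2 change from 8 to 16 days on the x axis and from 16 to 24 days on the y axis; bars are limma's SE and colour gives the call at 24 versus 8 days. Slc25a2 and Slc25a54 stand apart high on the y axis at 2.26 and 1.87, and Slc25a21 far to the right at 1.30.

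The intervals themselves were set against each other in the same fit, which called 2 members, beside 5.38% of all genes. For Slc25a21 the change of the second interval was lower than that of the first by a log2 difference of -1.28 ± 0.18 (SE; adjusted p = 0.00237), and the call was kept without any array. For Slc25a35, a carrier of less known substrate, it was higher by 0.96 ± 0.20 (SE; adjusted p = 0.0223). That call was lost in 4 of the 9 runs that left out an array, with an adjusted p of up to 0.0733 without replicate 1 of 16 days. For Slc25a2 and Slc25a54 the differences were 1.91 ± 0.53 (SE; adjusted p = 0.0738) and 1.21 ± 0.40 (adjusted p = 0.151), which were not called, so that the larger change in the second interval is a description.

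Among the 9 carriers of amino acids, 2 rose and 5 fell over the whole span, and the median change was -0.36. Of all genes 19.2% rose and 35.2% fell, with a median of -0.18, and these figures stand beside each whole-span list count below. Slc25a12 (aralar) and Slc25a13 (citrin) exchange mitochondrial aspartate for cytosolic glutamate, a step of the malate-aspartate shuttle. Slc25a12 stood at 0.46, 0.70 and 0.42 at 8 days, at 0.13, -0.41 and 0.00 at 16 days and at -0.70, -0.52 and -0.48 at 24 days. Slc25a13 stood at 0.41, 0.69 and 0.44, then at -0.05, 0.00 and 0.05, and then at -0.47, -0.27 and -0.37. Both were high in every array of 8 days and low in every array of 24 days, and no array of an age overlapped with those of the next.

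Slc25a12 fell by 0.62 ± 0.14 (SE) in the first interval (adjusted p = 0.0108) and by 0.47 ± 0.14 in the second (adjusted p = 0.0302). Over the whole span it fell by 1.10, a 2.14-fold fall (adjusted p = 1.14e-04), the largest of any member. Slc25a13 fell by 0.51 and 0.37 in the intervals and by 0.88 in all (1.84-fold, adjusted p = 4.02e-05). With each array centred on its median, the second-interval calls of Slc25a12, Slc25a13, Slc25a14 and Slc25a15 were lost, at adjusted p of 0.0936, 0.0872, 0.13 and 0.18, and those over the whole span were kept.

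Slc25a15 and Slc25a2 are the ornithine carriers, which link the cytosolic and mitochondrial steps of the urea cycle and of arginine and polyamine metabolism. Slc25a15 stood at 0.40, 0.66 and 0.42 at 8 days, at 0.00, 0.00 and 0.01 at 16 days and at -0.27, -0.19 and -0.50 at 24 days. It fell by 0.49 ± 0.11 (SE), then by 0.32 ± 0.11, and by 0.81 in all (1.76-fold, adjusted p = 1.12e-04). Slc25a2 ran the other way.

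Slc25a2 stood at 0.00, -0.51 and -0.53 at 8 days, at -0.04, 0.65 and -0.61 at 16 days and at 2.64, 1.86 and 2.28 at 24 days. The arrays of 8 and 16 days overlapped, and those of 24 days lay above all others. The change was 0.35 ± 0.30 (SE) in the first interval, not called (adjusted p = 0.535), and Slc25a2 rose by 2.26 ± 0.30 in the second, a 4.78-fold rise (adjusted p = 6.35e-04). Over the whole span it rose 6.09-fold, the largest change of any member.

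Slc25a22 and Slc25a18 carry glutamate with protons. Slc25a22 stood at 0.39, 0.20 and 0.28 at 8 days, at 0.00, 0.19 and -0.03 at 16 days and at -0.50, -0.23 and -0.34 at 24 days. It fell by 0.41 ± 0.10 (SE) in the second interval (adjusted p = 0.0138, lost at 0.0629 without replicate 1 of 24 days) and by 0.65 in all. Slc25a18 stood at 0.04, 0.16 and 0.02, at 0.05, -0.13 and 0.00, and at -0.23, -0.04 and -0.17, and was called in no comparison. Its change over the whole span was -0.22 ± 0.09 (SE; adjusted p = 0.0646), and was called at -0.27 without replicate 2 of 24 days (adjusted p = 0.0458).

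Slc25a38, which imports glycine for heme synthesis, stood at -0.40, -0.20 and -0.23 at 8 days, at 0.14, 0.00 and 0.19 at 16 days and at -0.07, 0.14 and 0.08 at 24 days. It rose by 0.38 ± 0.10 (SE) in the first interval (adjusted p = 0.016) and the change of the second was -0.06. Slc25a29, a carrier of basic amino acids, fell by 0.36 over the whole span, a call lost when arrays were centred (adjusted p = 0.0569). Slc25a44, which carries branched-chain amino acids, changed by no more than 0.12 in either direction and was not called.

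Of the 5 carriers of carboxylates, keto acids and acylcarnitine, 3 rose over the whole span and none fell. Slc25a21 carries oxoadipate and oxoglutarate, intermediates of lysine and tryptophan breakdown. It stood at -1.06, -1.21 and -1.23 at 8 days, at 0.21, 0.00 and 0.21 at 16 days and at 0.00, 0.29 and 0.20 at 24 days. The arrays of 8 days lay below all others, and those of 16 and 24 days overlapped.

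Slc25a21 rose by 1.30 ± 0.11 (SE) in the first interval, a 2.47-fold rise (adjusted p = 1.76e-05), the largest of any member in that interval. Its change in the second was 0.03 ± 0.11. The 8-day mean was -1.17 ± 0.10 (SD, n = 3), beside 0.14 ± 0.12 at 16 days and 0.16 ± 0.15 at 24 days.

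Slc25a10, which exchanges dicarboxylates for phosphate, stood at -0.01, 0.00 and 0.00 at 8 days, at -0.19, 0.08 and -0.44 at 16 days and at 0.51, 0.25 and 0.67 at 24 days. The 24-day arrays lay above all others, and Slc25a10 rose by 0.66 ± 0.14 (SE) in the second interval (1.58-fold, adjusted p = 0.00745). Slc25a20, the carnitine-acylcarnitine carrier of fatty acid entry, rose by 0.35 ± 0.10 in the same interval (adjusted p = 0.0223, up to 0.0953 without replicate 1 of 24 days) and by 0.40 in all. Slc25a1, the citrate carrier, was not called, at 0.18, -0.25 and -0.07 in the 3 comparisons, but fell by 0.35 in the second without replicate 2 of 16 days (adjusted p = 0.0152).

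Slc25a11, the oxoglutarate-malate carrier of the malate-aspartate shuttle, was not called either. Its change was -0.54 ± 0.20 (SE) in the first interval (adjusted p = 0.073) and -0.48 over the whole span (adjusted p = 0.0627). Its row held 4 blank cells, namely replicates 1 and 3 of 16 days, replicate 1 of 8 days and replicate 3 of 24 days. With blanks left missing the first-interval change was -1.13, and rested on replicate 2 alone at 16 days. Over the whole span it then fell by 0.72 (adjusted p = 0.00457). Without replicate 1 of 8 days it fell by 0.71 (adjusted p = 0.0288) and 0.64 (adjusted p = 0.0219), and without replicate 2 of 16 days it also fell over the whole span (adjusted p = 0.0189).

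The 7 carriers of phosphate, nucleotides and ATP-Mg held 2 that rose and 3 that fell over the whole span. Slc25a54 was not counted among them but with the carriers of less known substrate. Slc25a3 brings in the phosphate for ATP synthesis, and its 3 arrays were at 0.29 to 0.32 at 8 days, at 0.00 to 0.02 at 16 days and at -0.15 to -0.07 at 24 days. It fell by 0.41 ± 0.07 (SE) in all (1.33-fold, adjusted p = 7.42e-04).

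Slc25a33 and Slc25a36 carry pyrimidine nucleotides, which mitochondria need to copy and transcribe their own genome. Slc25a33 stood at -0.54, -0.29 and 0.00 at 8 days, at -0.03, 0.04 and -0.06 at 16 days and at 0.55, 0.37 and 0.52 at 24 days. Slc25a36 stood at 0.01, 0.19 and 0.00, at 0.20, 0.03 and 0.18, and then at -0.69, -0.28 and -0.45. At 24 days the arrays of Slc25a33 lay above, and those of Slc25a36 below, all arrays of the earlier ages.

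Slc25a33 rose by 0.50 ± 0.13 (SE) in the second interval (adjusted p = 0.0149, lost at 0.0599 without replicate 1 of 24 days) and by 0.76 in all (1.69-fold). Its first-interval change of 0.26 was not called, and was called at 0.40 without replicate 3 of 8 days (adjusted p = 0.036) or with blanks left missing (adjusted p = 0.0415). Slc25a36 fell by 0.61 ± 0.12 (SE) in the second interval, a 1.53-fold fall (adjusted p = 0.00396). Its 2 rows changed by -0.68 and -0.54.

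The short calcium-binding carriers exchange ATP-Mg for phosphate and so set the adenine nucleotide pool of the matrix. They are Slc25a24, Slc25a23 and Slc25a25, and Slc25a54 and Slc25a41 are treated here as their relatives only. By the RefSeq gene order of GRCm38.p6, Slc25a54 and Slc25a24 lie next to each other on chromosome 3, and Slc25a41 and Slc25a23 on chromosome 17, with 0 coding genes between the members of a pair.

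Slc25a54, a relative of Slc25a24 known from testis, stood at -0.45, -0.98 and -0.66 at 8 days, at 0.00, 0.46 and -0.55 at 16 days and at 1.99, 1.63 and 1.92 at 24 days. It rose by 1.87 ± 0.23 (SE) in the second interval, a 3.67-fold rise (adjusted p = 3.97e-04), and 5.82-fold over the whole span. Its first-interval change of 0.67 ± 0.23 was not called (adjusted p = 0.0647), and was called at 0.93 without replicate 3 of 16 days (adjusted p = 0.00819).

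Slc25a24 stood at -0.01, 0.73 and 0.07 at 8 days, at -0.38, -0.41 and -0.27 at 16 days and at 0.12, 0.08 and 0.00 at 24 days. Replicate 2 of 8 days stood apart from the other arrays of its age. Slc25a24 fell by 0.61 ± 0.17 (SE) in the first interval (adjusted p = 0.0236), and its changes of 0.42 in the second and -0.19 in all were not called (adjusted p = 0.0799 and 0.348). The second was called without replicate 2 of 8 days (adjusted p = 0.00651).

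Slc25a41 stood at 0.07, -0.21 and -0.15 at 8 days, at -0.01, 0.00 and -0.20 at 16 days and at 0.64, 0.24 and 0.21 at 24 days. It rose by 0.43 ± 0.13 (SE) in the second interval (adjusted p = 0.0304, up to 0.109 without replicate 1 of 24 days). Its neighbour Slc25a23 stood at 0.22, 0.43 and 0.33, at 0.00, -0.32 and 0.00, and at -0.45, -0.30 and -0.14, and fell by 0.43 ± 0.12 in the first interval (adjusted p = 0.0247) and by 0.62 in all (adjusted p = 0.0014). Slc25a25 kept within -0.08 and 0.14 in all 9 arrays and was not called.

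The sequences upstream of the neighbours Slc25a54 and Slc25a24 and of the nucleotide carriers Slc25a33 and Slc25a36 are shown, since between 16 and 24 days Slc25a54 rose by 1.87 beside a change of 0.42, not called, in its neighbour, and Slc25a33 rose where Slc25a36 fell. Each is the 250 bases before the start site in RefSeq, 5′ to 3′ on the strand of the gene, in build GRCm38.p6. They lie at chr3:109080249-109080498 (Slc25a54, + strand), chr3:109122899-109123148 (Slc25a24, + strand), chr4:149774268-149774517 (Slc25a33, - strand) and chr9:97111042-97111291 (Slc25a36, - strand). Capitals mark matches to the motifs searched.
Slc25a54: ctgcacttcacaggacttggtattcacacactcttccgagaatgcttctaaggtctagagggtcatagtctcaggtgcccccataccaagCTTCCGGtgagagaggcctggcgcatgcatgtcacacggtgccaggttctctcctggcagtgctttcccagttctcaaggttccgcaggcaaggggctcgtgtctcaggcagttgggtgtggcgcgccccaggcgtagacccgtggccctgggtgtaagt
Slc25a24: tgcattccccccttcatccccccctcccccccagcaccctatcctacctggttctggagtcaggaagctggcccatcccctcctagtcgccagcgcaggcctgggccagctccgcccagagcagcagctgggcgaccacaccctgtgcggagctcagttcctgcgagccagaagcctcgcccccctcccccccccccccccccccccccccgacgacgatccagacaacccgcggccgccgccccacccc
Slc25a33: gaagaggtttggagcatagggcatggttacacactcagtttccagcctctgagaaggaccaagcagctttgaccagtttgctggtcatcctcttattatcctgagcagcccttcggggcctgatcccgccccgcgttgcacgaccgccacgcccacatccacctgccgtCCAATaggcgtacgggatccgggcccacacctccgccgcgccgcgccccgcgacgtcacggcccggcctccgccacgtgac
Slc25a36: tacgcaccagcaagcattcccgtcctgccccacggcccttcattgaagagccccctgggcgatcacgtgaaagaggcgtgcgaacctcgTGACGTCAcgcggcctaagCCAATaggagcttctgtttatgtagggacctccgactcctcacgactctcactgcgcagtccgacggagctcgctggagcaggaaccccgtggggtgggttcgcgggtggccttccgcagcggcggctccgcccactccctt

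The upstream bases of Slc25a54 are 58.8% G and C, with 10 CG dinucleotides, beside 72.8% and 14 for Slc25a24. Slc25a33 and Slc25a36 both come to 64.4%, with 23 and 24 CG dinucleotides. The capitals in Slc25a54 are a GABP match on the opposite strand, beginning 160 bases before the start site. In Slc25a33 they are a CCAAT match 81 bases before it, and in Slc25a36 a cAMP response element (CRE) match 161 bases and a CCAAT match 142 bases before it, while Slc25a24 held none.

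Of the 43 members, 33 were found in the RefSeq promoter table, and windows of 300 bases, 250 before to 50 after the start, were searched on both strands for 6 motifs. CCAAT was present in 18 of the 33 (54.5%) beside 41.1% of 27025 genes, and the GABP motif CCGGAAG in 6 (18.2%) beside 9.93%. The CRE motif TGACGTCA was present in 2, Slc25a25 and Slc25a36 (6.06%), beside 2.03%, and TATAAA in 2, Slc25a18 and Slc25a21 (6.06%), beside 15.7%. The palindromic NRF1 motif and the ESRRA motif AAGGTCA were present in 1 each, Slc25a3 and Slc25a34 (3.03%), beside 5.19% and 5.38%. A match describes the letters of the window and no binding was measured.

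Of the 8 measured carriers of coenzymes, vitamins and glutathione, 1 rose and 4 fell over the whole span. Slc25a39 and Slc25a40 import glutathione, the main thiol antioxidant, into mitochondria. Slc25a39 stood at -0.72, -0.57 and -0.48 at 8 days, at 0.00, 0.14 and -0.20 at 16 days and at 0.68, 0.27 and 0.70 at 24 days. Slc25a40 stood at -0.34, 0.07 and 0.02, at 0.02, -0.06 and 0.22, and at -0.05, 0.01 and -0.02.

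The arrays of Slc25a39 did not overlap between any pair of ages, and those of Slc25a40 overlapped throughout. Slc25a39 rose by 0.57 ± 0.14 (SE) in the first interval (adjusted p = 0.0124) and by 0.57 ± 0.14 in the second (adjusted p = 0.0109), which gave a 2.21-fold rise in all. The first of these calls was lost when replicate 1 of 8 days and replicate 2 of 16 days were left out together (adjusted p = 0.094). Slc25a40 was not called, at 0.15, -0.08 and 0.06. Its 2 rows changed by 0.10 and 0.20 from 8 to 16 days. The second row held 5 blank cells, every array of 24 days among them, so the rows could not be compared at that age. These blanks were taken as 0 before averaging. The 24-day values of Slc25a40 are therefore those of the first row (-0.11, 0.02 and -0.04) averaged with 0, which also narrows their spread.

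Slc25a51, which brings NAD into mitochondria, stood at 0.39, 0.34 and 0.49 at 8 days, at 0.00, -0.21 and 0.06 at 16 days and at -0.56, -0.44 and -0.42 at 24 days. The ages did not overlap, and Slc25a51 fell by 0.45 ± 0.10 (SE), by 0.42 ± 0.10 and by 0.88 in all (1.84-fold, adjusted p = 3.52e-05). Slc25a42, a coenzyme A carrier, stood at 0.34, -0.10 and 0.24, at 0.18, 0.00 and 0.28, and at -0.50, -0.45 and -0.33. It fell by 0.58 ± 0.13 in the second interval (1.49-fold, adjusted p = 0.00765).

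Slc25a16, linked to coenzyme A, and Slc25a17, the peroxisomal carrier of coenzyme A and flavin nucleotides, fell by 0.34 and 0.41 over the whole span. Both calls were lost when arrays were centred, at adjusted p of 0.204 and 0.0876. Slc25a26, the S-adenosylmethionine carrier, was not called. Slc25a32, a folate and flavin carrier, was not called at -0.31 over the whole span (adjusted p = 0.14), and fell by 0.50 without replicate 1 of 8 days (adjusted p = 0.0143).

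The mitoferrins Slc25a28 and Slc25a37 bring iron into mitochondria for heme and iron-sulfur clusters, and Slc25a37 is the form best known from erythroid cells. Slc25a28 stood at -0.35, -0.45 and -0.48 at 8 days, at 0.07, 0.05 and -0.10 at 16 days and at 0.22, 0.00 and 0.36 at 24 days. Slc25a37 stood at 0.25, 0.22 and 0.35, at -0.06, -0.34 and -0.14, and at 0.03, -0.05 and 0.00. The 8-day arrays were the lowest of Slc25a28 and the highest of Slc25a37.

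Slc25a28 rose by 0.43 ± 0.11 (SE) in the first interval (adjusted p = 0.0135) and by 0.62 in all (1.53-fold, adjusted p = 6.46e-04). Slc25a37 fell by 0.45 ± 0.09 in the first interval (adjusted p = 0.00596) and by 0.28 in all. That last call was lost when arrays were centred (adjusted p = 0.231) and without replicate 3 of 8 days (adjusted p = 0.0901) or any array of 24 days. Of the erythroid marker genes, 0 of 3 were called by limma in any comparison, with 0, 0 and 1 at an unadjusted p under 0.05.

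The uncoupling-protein-like carriers Slc25a14, Slc25a27 and Slc25a30 fell over the whole span by 0.40, 0.40 and 0.37. When arrays were centred the calls of Slc25a27 and Slc25a30 were lost, at adjusted p of 0.0624 and 0.0715, while that of Slc25a14 was kept. Slc25a14 also fell by 0.33 ± 0.09 (SE) in the second interval (adjusted p = 0.025, lost at 0.106 without replicate 1 of 24 days).

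Among the 9 carriers of the outer membrane or of less known substrate, 2 rose over the whole span (Slc25a46 and Slc25a54) and 2 fell (Slc25a35 and Slc25a45). Slc25a46, an outer membrane protein of mitochondrial fusion and fission, rose by 0.44 ± 0.12 (SE) in the second interval (adjusted p = 0.0176, up to 0.0748 without replicate 1 of 24 days). Slc25a35 stood at 0.25, 0.39 and 0.44 at 8 days, at -0.25, -0.57 and -0.12 at 16 days and at 0.00, 0.00 and -0.10 at 24 days, so that the 16-day arrays were the lowest. It fell by 0.68 ± 0.12 in the first interval (1.60-fold, adjusted p = 0.00241), and by 0.40 over the whole span, a call lost when arrays were centred (adjusted p = 0.113).

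Slc25a45 fell by 0.22 over the whole span (adjusted p = 0.0449), a call lost when arrays were centred (adjusted p = 0.339). Slc25a34, Slc25a43, Slc25a47, Slc25a48 and Slc25a53 were not called in any comparison, with changes from -0.29 to 0.22, except that Slc25a48 fell by 0.37 over the whole span without replicate 3 of 24 days (adjusted p = 0.0405). Slc25a43 was called as risen with centred arrays, by 0.31 in the second interval (adjusted p = 0.0415) and 0.34 in all (adjusted p = 0.0131). Of the 3 members on chromosome X, Slc25a14 fell in the second interval and over the whole span, and Slc25a43 and Slc25a53 were not called. The first-interval change of Slc25a14 was -0.08, not called. Chromosome X is silenced in pachytene spermatocytes, and a part of this in these changes was not tested.

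**Figure D3:**
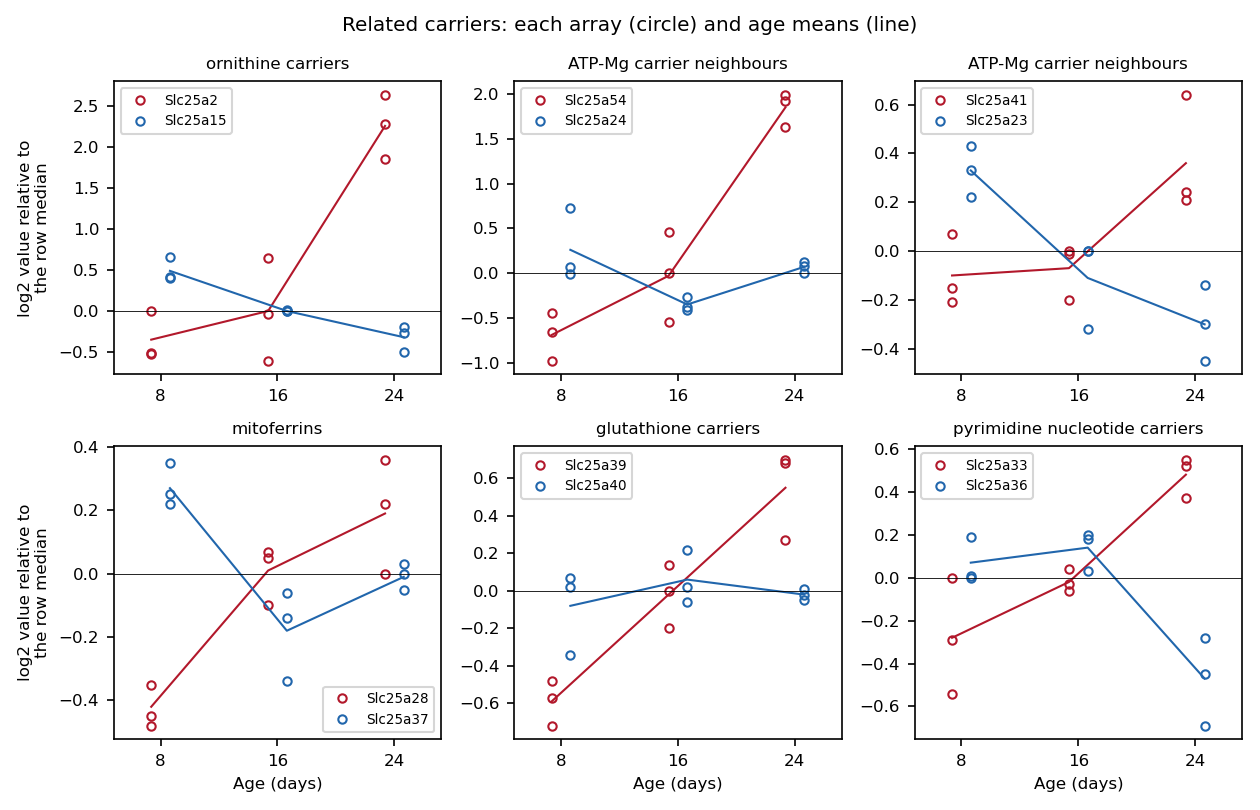
Each panel sets a pair of related carriers side by side, with age in days on the x axis and the log2 value relative to the row median on the y axis; circles are single arrays, shifted slightly apart for the members of a pair, and lines join the age means of 3 arrays. In each panel the member drawn in red rose over the whole span, Slc25a15, Slc25a23, Slc25a36 and Slc25a37 fell, and Slc25a24 and Slc25a40 were not called.

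Related carriers were also compared directly, as the difference of their values within each array. This was done for 8 pairs in 3 comparisons, 24 exact permutation tests, 2-sided. With 3 arrays against 3 the smallest p such a test can give is 0.1 (0.15 after Benjamini-Hochberg adjustment over the 24), so that no pair could be called, and 16 of the 24 tests stood at that smallest p. All 8 differences had arrays of 24 days that did not overlap with those of 8 days, beside 65.5% of all single genes. The share over other pairs of genes was not computed, so this is a description.

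Slc25a2 minus Slc25a15 was -0.84 ± 0.40 (SD, n = 3) at 8 days and 2.58 ± 0.47 at 24 days, a change of 3.42. Slc25a54 minus Slc25a24 went from -0.95 ± 0.66 to 1.78 ± 0.20, a change of 2.74. The changes were smaller for Slc25a33 minus Slc25a36 (1.29), Slc25a41 minus Slc25a23 (1.08), Slc25a39 minus Slc25a40 (1.08) and Slc25a28 minus Slc25a37 (0.90). At 24 days the Slc25a40 values in its pair included blanks taken as 0. The aspartate-glutamate carriers moved most alike, with a change of -0.21 for Slc25a12 minus Slc25a13, and the glutamate carriers came next, with -0.43 for Slc25a22 minus Slc25a18. Probe sequences were not used here, so whether a probe of a carrier also reads its relative was not tested.

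The 3 translocases left out by the rule gave 2 falls. Slc25a4 and Slc25a5, which exchange ADP and ATP, fell by 0.76 ± 0.08 (SE; adjusted p = 3.66e-05) and 0.78 ± 0.15 (adjusted p = 0.00145) over the whole span. Slc25a31, the germ cell form, was not called, at 0.08 ± 0.11 (adjusted p = 0.564). Of 4 further measured family members, Mtch2, an insertase of the outer membrane, rose by 1.22 and its relative Mtch1 fell by 1.04, and the uncoupling proteins Ucp1 and Ucp3 were not called.

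**Figure D4:**
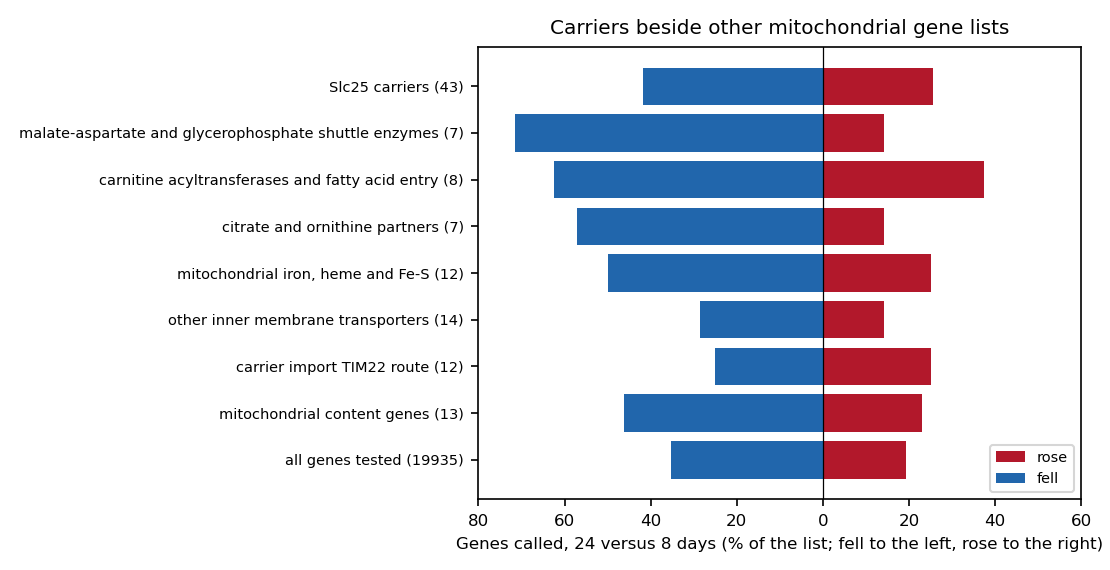
Bars give the share of each list's measured genes called at 24 versus 8 days, in percent, risen to the right and fallen to the left, with the number measured in parentheses. The Slc25 carriers, at 25.6% risen and 41.9% fallen, are drawn beside other mitochondrial gene lists and all genes tested, at 19.2% and 35.2%. The list drawn as fatty acid entry also holds acyl-CoA dehydrogenases, and that drawn as other inner membrane transporters is a broader set of mitochondrial transporters and regulators.

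Genes that work with the carriers also held members of both directions over the whole span, beside 19.2% risen and 35.2% fallen of all genes. Of 7 enzymes of the malate-aspartate and glycerophosphate shuttles, 1 rose and 5 fell, with Gpd2, the mitochondrial glycerophosphate dehydrogenase, up by 2.20 ± 0.21 (SE), and Mdh2 and Got2, the matrix partners of Slc25a12 and Slc25a13 in the shuttle, down at -1.25 and -1.20. Of 8 carnitine acyltransferases and acyl-CoA dehydrogenases of fatty acid oxidation, 3 rose and 5 fell. Crat, carnitine acetyltransferase, rose by 2.32 ± 0.13 and Cpt1c by 1.25, and Acadm, which starts the oxidation of medium chains, fell by 1.26.

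Of 7 citrate and ornithine partners, 1 rose and 4 fell. Odc1, which turns ornithine into the polyamine putrescine, rose by 1.39 ± 0.16 (SE), and Acly and Asl fell by 1.20 and 0.77. Of 12 genes of mitochondrial iron, heme and iron-sulfur clusters, 3 rose and 6 fell. Ftmt, mitochondrial ferritin, rose by 3.83 ± 0.26, nearly all of it (3.69) between 16 and 24 days, and Abcb10 and Glrx5 fell by 0.81 and 0.77.

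Of 14 genes of other mitochondrial transporters and their regulators, 2 rose and 4 fell over the whole span. Abcb6 was up by 0.60, Smdt1, a calcium uniporter subunit, up by 0.49 and Sfxn3 down at -0.81. Of 12 genes of the import route that inserts carriers into the inner membrane, 3 rose and 3 fell, with Tomm22 up by 0.69, Tomm70a up by 0.61 and Timm8a1 down at -0.83. Of 13 genes of general mitochondrial content 3 rose and 6 fell, with Vdac2 up by 1.27 and Hspd1 and Vdac1 down at -1.12 and -0.99. The Vdac1 call was lost without replicate 1 of 24 days.

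Markers of testis cell types moved over the same ages. All 8 markers of pachytene spermatocytes rose by 16 days, with list medians of -3.03 to -2.97 in the arrays of 8 days and of -0.03 to 0.31 in those of 16 days. Of 8 spermatid markers limma called 0 in the first interval, with 0 at an unadjusted p under 0.05, and all 8 rose in the second, with list medians of -0.26 to 0.00 at 16 days and 3.52 to 4.51 at 24 days. In the first interval 6 of 8 spermatogonial, 4 of 7 Sertoli, all 5 Leydig, 4 of 5 peritubular myoid and all 5 endothelial markers fell.

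Between 8 and 24 days the range of the list median over arrays went from 0.49 to 0.56 down to -0.89 to -0.72 for spermatogonia. For Sertoli cells it went from 0.66 to 0.72 down to -0.85 to -0.56. Of the 8 spermatogonial markers 7 fell over this span and 1, Dmrtb1, rose by 0.53. Of the macrophage markers 2 of 5 fell over the whole span and of the adipocyte markers 3 of 6, and none of 4 epididymal markers was called by limma (0 at an unadjusted p under 0.05). The part of these shifts in the carriers' changes was not tested. The median of 1015 olfactory receptor genes, which testis arrays measure near background, was 0.17 in 1 array of 8 days (replicate 1) and 1 of 16 days (replicate 2), and -0.05 to 0.03 in the others. Without both of them the members fallen in the second interval numbered 14, and the genes fallen over the whole array went from 4004 to 5755.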

How the data were processed

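The authors deposited log values, taken as log2, of 28815 array rows for 9 arrays, relative to each row's median; labelling followed the Affymetrix whole-transcript protocol, per the labels. Background correction, normalization, summary and log base are not given in the sources used here. Such centring removes the level, so no dim gene could be filtered out, and precision is limited by having 3 arrays per age. Blank cells were taken as 0, which put every row's median at 0. Of the rows, 21780 carried exactly 1 symbol, and rows of a gene were averaged into 19935 genes.

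All tests across genes came from limma 3.58.1 (R 4.3.3), with a linear model of age over the 9 arrays and moderated variances; they were 2-sided, with Benjamini-Hochberg adjustment over all genes and a threshold of 0.05; the scripts were tested on simulated data. The members and lists were chosen with earlier results of these data known. Values are printed for the up to 5 largest called rises and falls per comparison, for close relatives, and for up to 3 called genes of each other list. Alternatives were centred arrays, blanks left missing, only the ages compared, rows fitted alone, array weights, robust eBayes, a replicate block, and arrays left out. Replicates 1 and 2 did not deviate together across ages, so the numbers were not used as pairs.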

Additional observations from a re-analysis of the deposited data

Results flagged for a closer look

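For 2 carriers the change from 16 to 24 days differed from that from 8 to 16 days by a test of the difference itself, fitted with limma over all genes. For Slc25a21, the oxodicarboxylate carrier, the difference was -1.28 on the log2 scale (adjusted p = 0.00237), from a rise of 1.30 in the first interval and a change of 0.03 in the second, and all 6 later arrays lay above the 3 of 8 days. For Slc25a35 it was 0.96 (adjusted p = 0.0223), from a fall of 0.68 and a change of 0.28 that was not called. The call for Slc25a35 was lost in 4 of the 9 runs that left out an array (adjusted p up to 0.0733), and that for Slc25a21 was kept in all 9. Single arrays standing apart were not tested for, since each age had 3 arrays.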

How the results depend on the processing

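No called member changed its sign under any alternative run. Fitting rows alone and robust eBayes lost and gained no call of a member. Beside 8 members fallen from 16 to 24 days there were 4 with centred arrays, 4 with blanks left missing and 14 without replicate 1 of 8 days and replicate 2 of 16 days, and beside 18 fallen from 8 to 24 days there were 10 with centred arrays. All genes fallen went from 4004 to 1927, 2423 and 5755 under the first 3 of these, and from 7015 to 5236 under the last. With blanks left missing the difference between intervals was called for 1 member. Over the runs that left out an array, the members that rose and fell numbered 2 to 4 and 7 to 10 for 16 versus 8 days, 4 to 9 and 3 to 9 for 24 versus 16 days, and 9 to 11 and 14 to 19 for 24 versus 8 days. Of all genes, 18.8% to 25.5%, 18.4% to 40.5% and 46.9% to 56.4% were called over the same runs, in the same order of comparisons. The difference between intervals was called for 1 to 4 members and the F test for 19 to 30.

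With the replicate number as a block, which uses the 6 numbered arrays alone, 1 member rose and 1 fell for 16 versus 8 days, 2 and 0 for 24 versus 16 days, and 6 and 8 for 24 versus 8 days by limma, beside 9.89%, 6.49% and 38% of all genes called in that fit. At an unadjusted p under 0.05 these were 5 and 8, 6 and 5, and 8 and 13. Fewer arrays entered that fit, and same-numbered arrays correlated at -0.461 to 0.197 in their deviations, so the numbers are no evidence of pairing. Adding rows with several symbols gave no value, because 0 such rows carried an Slc25a symbol. Each age had 3 arrays, and signal over background could not be examined in centred values.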
